A study of Homo sapiens with 4 samples.

Results

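The COMMD family was followed in U87MG spheres kept with or without abemaciclib. Its members were taken by gene name, COMMD1 to COMMD10, from the 60617 genes listed in every library. All 10 names were found, each on a single row, and all 10 passed the filter on low counts that left 17207 genes for testing. The family was chosen by its values in the same contrast, untreated against abemaciclib, as counts scaled to the library total (CPM). The differences of its members between the groups are therefore given as a description, with no test. Genes outside the family were tested, although their lists too were chosen with earlier results of these data known.

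Each COMMD protein ends in a COMM domain, through which the family members bind one another. In cells they form a ring that joins the coiled-coil proteins CCDC22 and CCDC93 and DENND10 in the CCC complex. The CCC complex and retriever (VPS35L, VPS26C and VPS29) together make up Commander, which sorts receptors, integrins and copper pumps out of endosomes and back to the cell surface. COMMD1 was first known for its part in copper excretion and as an inhibitor of NF-kB, and the cullin ubiquitin ligases are among the partners of the family.

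U87MG is an established human glioblastoma line, grown here as spheres in DMEM/F12 with N2, 2% B27, 20 ng/ml bFGF and 20 ng/ml EGF. One group was untreated and the other received the CDK4 and CDK6 inhibitor abemaciclib, and the time given for all libraries is 14 days. Neither the dose nor any vehicle for the untreated spheres is given in the sources used here. There were 2 poly-A libraries per group, all 4 from this single line. Nothing in the labels says that libraries of a group came from separate cultures, and the spread behind the p-values is that between these libraries and may be technical.

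Totals ran from 23684260 to 33418075 expected counts per library. Counts of replicates differed beyond sampling noise, with chi-square over degrees of freedom at 3.56 (untreated) and 1.95 (abemaciclib), and every library was used as its own sample. This excess does not show that the libraries came from separate cultures. The spread between replicates that edgeR estimated beyond counting noise was small, a common coefficient of variation of 2.86%. Of 17207 genes tested, 77.3% passed the threshold, with 38% higher and 39.3% lower after the drug (percentages of all tested genes; adjusted p under 0.05 in the quasi-likelihood test of edgeR). The share of mitochondrially encoded genes was 4.27% and 4.66% untreated and 11.8% and 11.7% after the drug. Of 11 glioma line markers, VIM, CD44, NES, EGFR and SLC1A3 were plainly present. OLIG2 (62 to 183 counts) and PROM1 (6 to 31) were low. SOX2 (1 to 12 counts), GFAP (4 to 10), S100B (0 to 3) and AQP4 (0 to 2) were at or near 0. Of the 8 that were tested, 7 were lower and 1, SOX2, was higher. The 11 summed to 7850 and 7261 CPM untreated and 5006 and 5061 CPM after the drug. Most of these sums was VIM, at 6250 and 5679 CPM untreated and 4330 and 4407 CPM after the drug. The 11 markers of other cell types summed to 29.03 and 29.09 CPM untreated and 19.9 and 19.4 CPM after the drug, with the microglial AIF1 at 0 counts in every library. Of the 9 of these that were tested, 5 were higher and 3 lower, and PECAM1 (9.78 to 1.14 CPM) and SYT1 (11.8 to 7.04 CPM) fell most in CPM. The part of these shifts in the results below was not tested.

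Starts of COMMD genes were searched for 6 short motifs. The E-box CACGTG, the core shared by sites of MYC-type and lysosomal TFE-type factors, is printed as an example of where such letters stand in this family, and nothing about the drug is read from it. RefSeq windows (GRCh38.p14, 250 bases before to 50 after a gene's start, with more than 1 window for some genes) matched 9 of the 10 members by symbol, and COMMD5 had no entry. Of these 9, 5 held CACGTG in a window: COMMD3, COMMD4, COMMD8, COMMD9 and COMMD10. It reads the same on both strands, and it was in a window of 8.77% of all 27305 genes of the table and of 12.2% of the 11426 genes that were also tested here. The 30 bases around each site are given 5′ to 3′ on the strand of the gene, with the E-box in capitals.
COMMD9: aacagcgacagcCACGTGacctcgcttccc
COMMD4: gttagtccaagtCACGTGatcgtcgactca
COMMD8: gccggcgagagtCACGTGggcgagtcgtag
COMMD3: cgcggcgcgtgtCACGTGgtgtgcgtgtcg
COMMD10: gtgctgccgaatCACGTGgaacggtattcc

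These stretches lie at chr11:36289443-36289472 (minus strand), chr15:75336006-75336035 (plus), chr4:47463707-47463736 (minus), chr10:22316368-22316397 (plus) and chr5:116085420-116085449 (plus). Counted from the start of the gene, the E-box of COMMD9 spans bases -36 to -31, that of COMMD4 -45 to -40 and that of COMMD8 -22 to -17. COMMD8 holds another at 20 to 25. In COMMD3 it spans -8 to -3, and in COMMD10 it lies at -30 to -25 of the most downstream of its RefSeq starts. A match is a run of letters and not a shown binding site. Each of the 6 motifs was searched on both strands. CCGGAAG (ETS type) was found in COMMD2 and COMMD10, ATGGCGG (YY1 type) in COMMD1 and COMMD10, CCAAT in COMMD6, COMMD9 and COMMD10, and GGGCGG (GC box) in 7 members. Their shares among all genes of the table were 12.2%, 6.66%, 39.7% and 48.3%, and among the tested genes 20.6%, 11.7%, 43.1% and 74.1%. The GC box was thus the motif held by most members, and also the most common among tested genes. In COMMD10 a YY1-type match and a CCAAT match on the opposite strand overlap each other.

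COMMD6 was the only member with GCATGCG (NRF1 type), which 4.74% of the genes in the table and 7.30% of the tested genes hold. Its site is shown because the gene UCHL3 starts beside it on the opposite strand and behaved differently (below). The match on the gene's strand is in capitals, and an overlapping match on the opposite strand starts 1 base before it.
COMMD6: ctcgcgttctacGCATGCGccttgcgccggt

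This stretch is chr13:75549470-75549500 (minus strand), with the motif at bases -49 to -43 from the start.

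Most COMMD transcripts were more abundant after abemaciclib. In 9 of 10 members both abemaciclib libraries lay above both untreated libraries, where 43.4% of all tested genes did so and 87.9% were separated in either direction. The family's median log2 fold change was 1.04, beside -0.012 over all tested genes. By the edgeR threshold 8 members would be called higher and 0 lower, beside the 38% of tested genes called higher. Since the family was put forward with this contrast in view, nothing is read from these counts. In bulk RNA, a different make-up of cells and a different amount of RNA per cell cannot be told apart.

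The 3 members with the largest differences were COMMD9, COMMD4 and COMMD8. COMMD9, which acts in the endosomal traffic of Notch receptors, was at 11.5 and 11.8 CPM (TMM-scaled) untreated and at 33.8 and 33.2 CPM after the drug. The replicates sat within 1 CPM of each other in both groups and the groups were far apart, with a log2 fold change of 1.52 ± 0.07 (SE). COMMD4 was at 31.89 and 28.02 CPM untreated and at 76.8 and 78.8 CPM after the drug (1.38 ± 0.05). COMMD8, which pairs with COMMD3 as an adaptor for chemoattractant receptors in B cells, was at 8.18 and 8.98 CPM untreated and at 20.8 and 19.7 CPM after the drug (1.23 ± 0.09). None of the 3 showed overlap between the groups, and neither did 87.9% of all tested genes. These 3 were picked for large differences in this contrast, so nothing is read from that separation.

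COMMD5, COMMD7 and COMMD1 formed a group close to 2-fold. COMMD5, also known as the hypertension-related gene HCaRG, was at 12.8 and 14.5 CPM untreated and at 29.7 and 29.6 CPM after the drug (1.11 ± 0.08). COMMD7 was at 44.6 and 48.8 CPM untreated and at 97.9 and 98.5 CPM after it (1.07 ± 0.04). COMMD1, the copper and NF-kB regulator, was at 8.999 and 9.381 CPM untreated and at 17.8 and 19.2 CPM after the drug (1.01 ± 0.09). The 6 members described so far differed by 1.01 to 1.52 on the log2 scale, and the other 4 by 0.45 or less.

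COMMD10 was the least abundant member by mean CPM and the most variable between replicates, at 8.52 and 7.03 CPM untreated and 11.5 and 9.68 CPM after the drug (0.45 ± 0.12). Its lower abemaciclib library exceeded its higher untreated library by little more than 1 CPM, and it rested on 230 to 328 counts per library. COMMD2 was at 17.7 and 16.8 CPM untreated and 18.9 and 19.5 CPM after the drug (0.16 ± 0.08). COMMD3, the partner of COMMD8 named above, was at 22.1 and 21.5 CPM untreated and 23.1 and 25.3 CPM after it (0.16 ± 0.07). For both of these the groups were separated, but the gap between them was of the size of the gap between replicates.

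COMMD6, the shortest member, whose protein is little more than the COMM domain, was the exception. It was at 86.7 and 80.3 CPM untreated and at 82.3 and 80.7 CPM after the drug. The groups overlapped, and the log2 fold change of -0.034 ± 0.041 changed sign with scaling by library size (0.020), with library size counted without mitochondrial genes (0.13) and without untreated replicate 1 (0.021). The other 9 members stayed above 0 under every alternative tried. COMMD3 and COMMD8 thus stood far apart (0.16 and 1.23) although they are described as acting together.

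**Figure D1:**
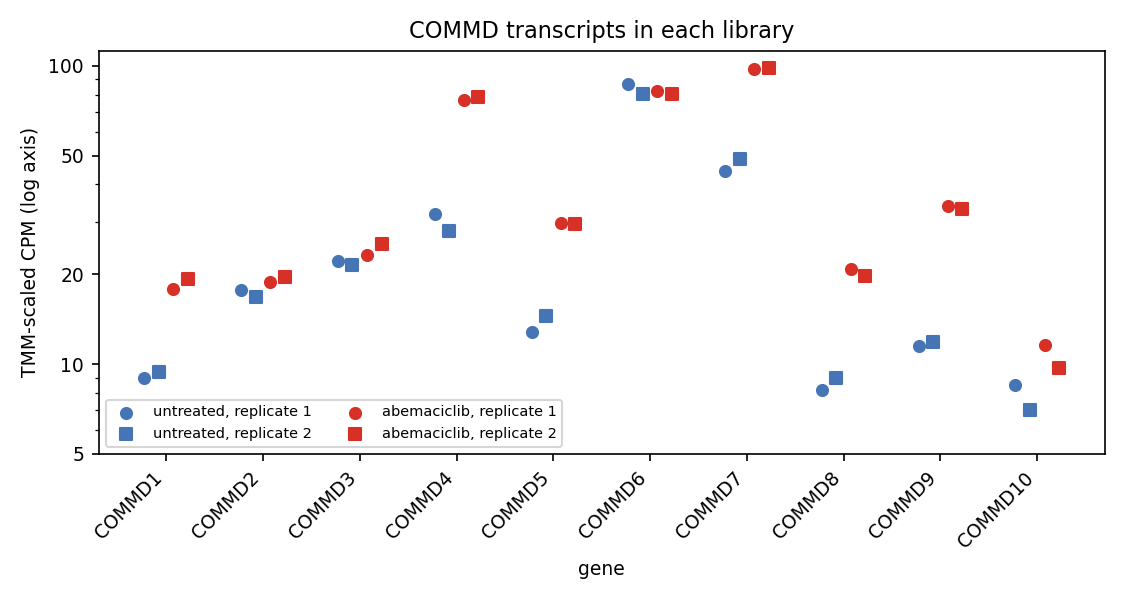
TMM-scaled CPM (log axis) of the 10 COMMD genes in each library, with circles for replicate 1, squares for replicate 2, blue for untreated and red for abemaciclib. The red points of COMMD9 sit at 33.8 and 33.2 CPM above blue ones at 11.5 and 11.8 CPM, while those of COMMD6 overlap near 80 CPM.

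**Figure D2:**
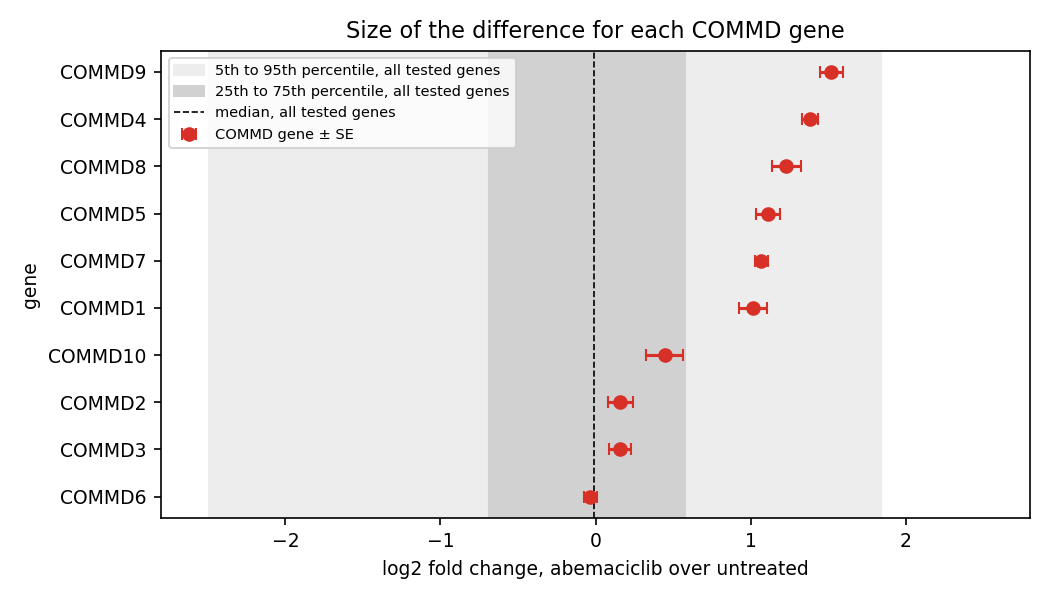
Log2 fold change (abemaciclib over untreated) of each COMMD gene with its SE, over bands that hold the middle of all 17207 tested genes. COMMD9, COMMD4, COMMD8, COMMD5, COMMD7 and COMMD1 lie above the 75th percentile of 0.58 and below the 95th of 1.84, and COMMD6 lies at -0.034.

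The make-up of the family's transcripts differed accordingly. COMMD6 supplied 34.3% and 32.5% of the family's counts untreated and 20.0% and 19.5% after the drug. COMMD4 supplied 12.6% and 11.3% untreated and 18.6% and 19.0% after the drug, and COMMD9 4.55% and 4.79% against 8.19% and 8.02%. These shares are of counts, not scaled for length.

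Levels of different members were compared per kb of annotated exon (GENCODE 29). In untreated spheres COMMD6 led at 28.8 ± 1.57 CPM per kb (SD, n = 2), followed by COMMD7 at 18.1 ± 1.15 and COMMD3 at 6.58 ± 0.135. COMMD8 (4.86 ± 0.320), COMMD5 (4.68 ± 0.412) and COMMD4 (4.42 ± 0.403) came next with overlapping libraries, then COMMD1 (3.84 ± 0.113). COMMD2 (3.51 ± 0.128) and COMMD10 (3.15 ± 0.428) also overlapped, and COMMD9 was lowest at 1.77 ± 0.033 CPM per kb. After abemaciclib COMMD7 led at 38.0 ± 0.149 CPM per kb, ahead of COMMD6 at 28.1 ± 0.403. COMMD4 (11.5 ± 0.204), COMMD8 (11.5 ± 0.420) and COMMD5 (10.2 ± 0.0292) followed, with the libraries of COMMD4 and COMMD8 overlapping. COMMD1 (7.75 ± 0.422) and COMMD3 (7.30 ± 0.455) overlapped as well, COMMD9 was at 5.08 ± 0.0646, and COMMD10 (4.31 ± 0.535) and COMMD2 (3.91 ± 0.0944), the lowest, overlapped.

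The order depended on the length used. Annotated exons span 1766 bases in COMMD8 and 6779 in COMMD4, whereas the longest coding sequence is 300 bases in COMMD6 and 549 to 672 bases in the other 9. Per kb of coding sequence COMMD6 led in both groups (278.4 ± 15.2 CPM per kb untreated and 271.7 ± 3.89 after the drug) and COMMD10 was lowest in both (12.8 ± 1.74 and 17.5 ± 2.18). COMMD9 then ranked 7 of 10 untreated and 4 of 10 after the drug. By exon length and by coding length COMMD6 and COMMD7 were the 2 most abundant members in both groups. The principal transcript was the longest with either of the 2 APPRIS principal tags searched, which 9 members had and COMMD7 did not. Per kilobase of it, COMMD6 was above COMMD4 untreated (46.6 ± 2.54 and 28.1 ± 2.56 CPM per kilobase, SD, n = 2). After the drug COMMD4 was above COMMD6 (72.9 ± 1.296 and 45.5 ± 0.651).

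**Figure D3:**
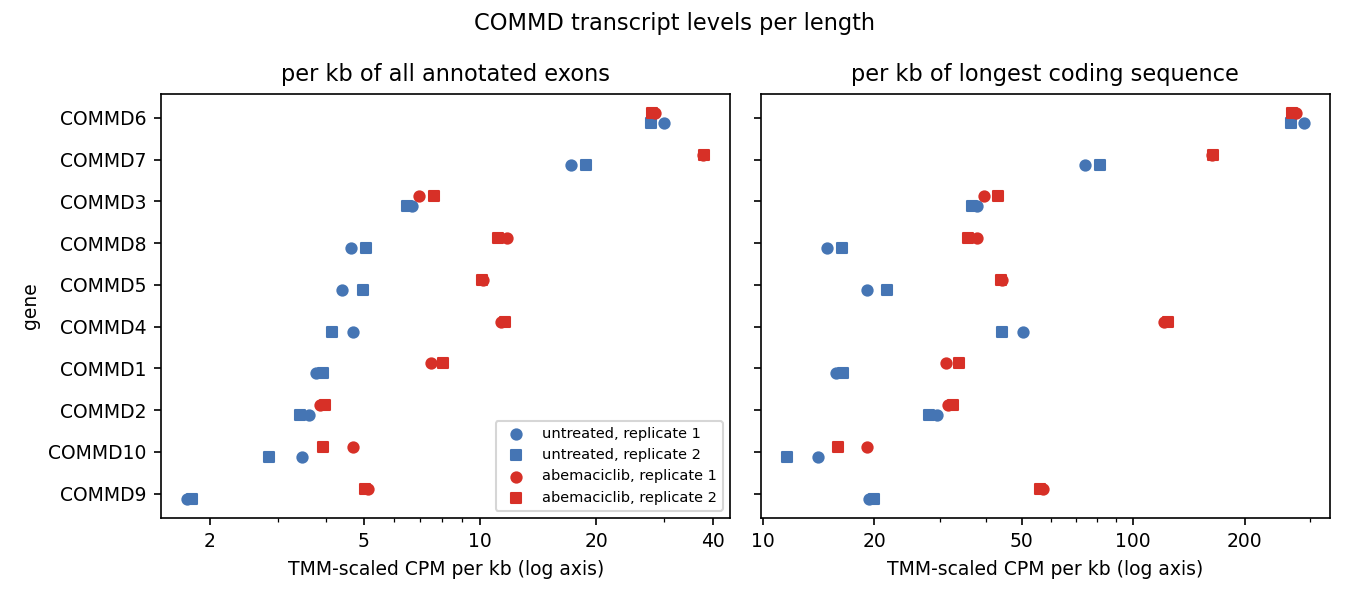
TMM-scaled CPM per kb (log axes) of each COMMD gene, divided by the length of all annotated exons (left) or of the longest coding sequence (right), with 1 point per library and genes in the same order in both panels. COMMD6 and COMMD7 stand to the right in both panels, and COMMD9 moves from 1.77 CPM per kb of exon to 19.6 CPM per kb of coding sequence in the untreated mean.

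The 10 genes lie on 10 different chromosomes (GRCh38), so they are no gene cluster. The widest are COMMD10, ENSG00000145781 (chromosome 5, 116084991 to 116412762), and COMMD1, ENSG00000173163 (chromosome 2, 61888724 to 62147247). COMMD9 is ENSG00000110442 (chromosome 11, 36269284 to 36289449), COMMD4 is ENSG00000140365 (chromosome 15, 75335891 to 75343224) and COMMD8 is ENSG00000169019 (chromosome 4, 47450796 to 47463719). COMMD7 is ENSG00000149600 (chromosome 20, 32702691 to 32743997), COMMD6 is ENSG00000188243 (chromosome 13, 75525219 to 75549439) and COMMD5 is ENSG00000170619 (chromosome 8, 144841042 to 144853736). COMMD2 is ENSG00000114744 (chromosome 3, 149738470 to 149752499) and COMMD3 is ENSG00000148444 (chromosome 10, 22315974 to 22320308).

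Some members may share reads with other genes. Deposited counts of COMMD1 and COMMD7 were not whole in all 4 libraries, those of COMMD3 in 2 and those of COMMD9 in 1, as happens where an expected count divides reads among genes. The other 6 members had whole counts throughout. COMMD3 lies inside the readthrough gene COMMD3-BMI1, which was given 0 and 8.86 counts untreated and 12.3 and 39.2 after the drug, beside 557 to 855.8 for COMMD3 itself. The row FO393400.1, which overlaps COMMD7 on its strand, held 0.46 to 24.1 counts, beside 1203 to 3335 for COMMD7. The pseudogene RPSAP26, which overlaps COMMD1 on its strand, held 0 and 0 counts untreated and 6.29 and 6.91 after the drug. COMMD1 itself held 243.1 to 652.3. No annotated gene overlapped COMMD9. The pseudogenes COMMD4P1 and COMMD4P2 were at 0 counts in every library, where a count of 0 allows up to 3. COMMD1, COMMD5 and COMMD10 also overlap genes on the opposite strand, and the strand setting of the counting is not given in the sources used here.

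Of the 10 members, 2 start within 1000 bases of a protein-coding gene that runs the other way. This comparison was added after the values were seen. COMMD6 and UCHL3, which encodes a ubiquitin hydrolase, start 41 bases apart, yet UCHL3 went from 14.2 and 14.0 CPM untreated to 43.6 and 44.2 CPM after the drug. UCHL3 thus differed by 1.64 ± 0.07 on the log2 scale (edgeR adjusted p = 2.55e-20), beside -0.034 for COMMD6. The outermost edges of COMMD1 and of CCT4, a subunit of the chaperonin TRiC, overlap by 80 bases. CCT4 went from 108.0 and 111.1 to 127.5 and 134.4 CPM (0.26 ± 0.04, edgeR adjusted p = 1.54e-07), beside 1.01 for COMMD1. That edge of COMMD1 is at 61888724 on chromosome 2, whereas the RefSeq window that held its motifs spans 61905424 to 61905723. This pair thus rests on the GENCODE edge. The difference between the genes of a pair was not tested.

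**Figure D4:**
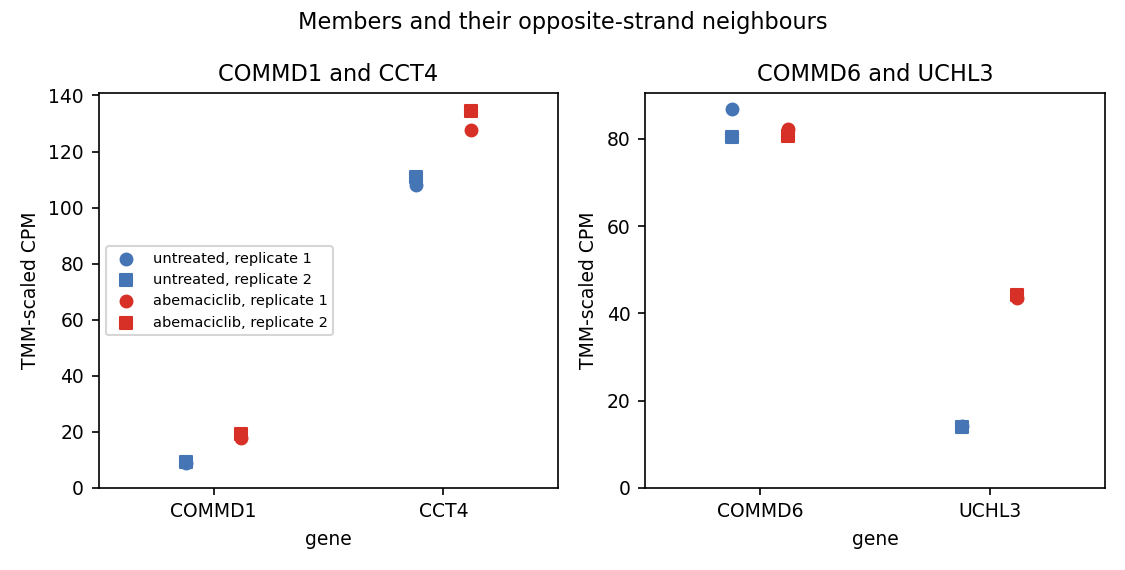
TMM-scaled CPM of COMMD1 with CCT4 and of COMMD6 with UCHL3 in each library (circles replicate 1, squares replicate 2, blue untreated, red abemaciclib). The pairing of COMMD1 with CCT4 rests on the outermost GENCODE edge of COMMD1. UCHL3 lies near 14 CPM untreated and 44 CPM after the drug, while its neighbour COMMD6 overlaps between groups.

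Transcripts of the other subunits of Commander rose with 1 exception. Only RNA was measured here, and levels of the proteins and complexes were not. Of 6 tested CCC and retriever partners 5 were higher, 1 did not pass and 0 were lower, the median log2 fold change being 0.75 (beside -0.012 over all tested genes and 38% called higher). VPS29, a subunit that retriever shares with retromer, rose from 25.3 ± 0.404 to 59.5 ± 1.19 CPM (mean ± SD, n = 2), or by 1.23 ± 0.05 on the log2 scale (edgeR adjusted p = 2.19e-19). VPS35L, the scaffold of retriever, rose from 38.5 ± 0.957 to 86.8 ± 2.12 CPM (1.18 ± 0.05, edgeR adjusted p = 6.84e-21). The coiled-coil subunits CCDC93 (0.78 ± 0.06) and CCDC22 (0.72 ± 0.10) and DENND10 (0.33 ± 0.05) rose less. VPS26C, the remaining retriever subunit, stayed at 56.4 ± 0.455 and 55.7 ± 1.20 CPM (-0.019 ± 0.045, edgeR adjusted p = 0.705). Its sign flipped with scaling by library size (0.034) and without abemaciclib replicate 2 (0.012). It also flipped with library size counted without mitochondrial genes, where it was called higher (0.15) and the median of all tested genes was 0.16.

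Transcripts of the WASH complex, which builds branched actin on endosomes and helps to recruit the CCC complex there, moved in both directions. Of its 6 genes 3 were higher, 2 did not pass and 1 was lower (median 0.27), where 38% of all tested genes were higher and 39.3% lower. WASHC5, the strumpellin subunit, rose from 18.9 ± 2.52 to 65.3 ± 1.24 CPM (1.78 ± 0.06, edgeR adjusted p = 1.04e-18). WASHC2A (0.66 ± 0.04) and WASHC2C (0.44 ± 0.05), whose products bind retromer, rose. WASHC1, the subunit that activates Arp2/3, fell from 24.1 ± 0.335 to 10.7 ± 0.980 CPM (-1.18 ± 0.09, edgeR adjusted p = 8.19e-14). WASHC3 (0.014 ± 0.068) and WASHC4 (0.11 ± 0.08) did not pass, and both did when library size was counted without mitochondrial genes, where 5 of the 6 were higher. That setting moved the median of all 17207 tested genes from -0.012 to 0.16 and the number called higher from 6542 to 7791. WASHC3 fell below 0 without untreated replicate 1 (-0.016) and without abemaciclib replicate 2 (-0.079). WASHC1 has near-identical copies in the genome, and WASHC2A and WASHC2C resemble each other closely, so these 3 values are uncertain.

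Of 12 genes of retromer, the related sorting complex, and the sorting nexins, 10 were higher, 1 did not pass and 1 was lower (median 0.51), beside 38% higher and 39.3% lower over all tested genes. The retromer subunits VPS26A (1.05 ± 0.05) and VPS35 (0.79 ± 0.04) and the nexin SNX2 (0.79 ± 0.05) rose most. SNX17, the adaptor that hands cargo to retriever, rose from 74.5 ± 0.202 to 116.4 ± 3.09 CPM (0.64 ± 0.04, edgeR adjusted p = 5.16e-16). TBC1D5, which switches off RAB7A, fell slightly (-0.19 ± 0.05, edgeR adjusted p = 1.48e-03), a call lost with library size counted without mitochondrial genes (-0.017). SNX27, the adaptor for retromer cargo and chosen here after its values were seen, was at -0.044 ± 0.046 and turned to 0.0098 with scaling by library size and to 0.12, called higher, without mitochondrial genes in the library size. In that last setting the median of all tested genes was 0.16.

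**Figure D5:**
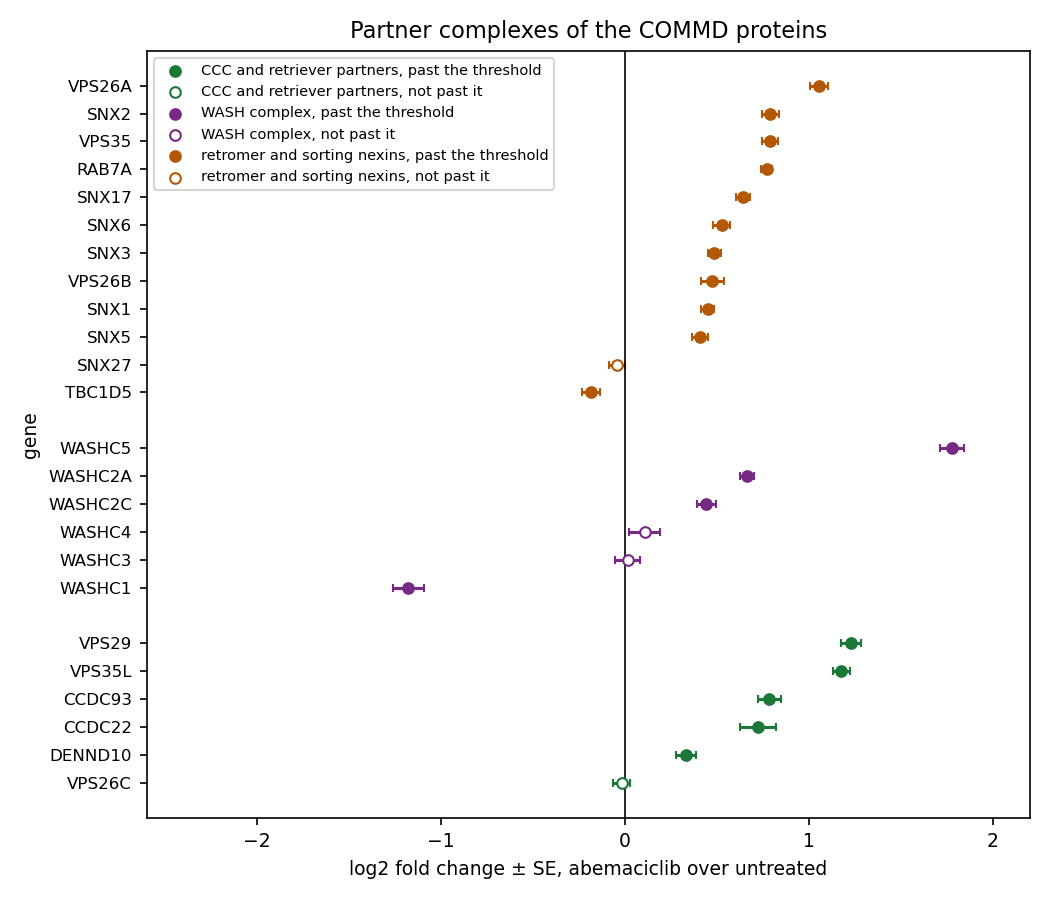
Log2 fold change (abemaciclib over untreated, ± SE) of the CCC and retriever partners, the WASH complex and retromer with sorting nexins, with filled points past an edgeR adjusted p of 0.05 and open points not past it. VPS29 and VPS35L lead the first group at 1.23 and 1.18, and WASHC5 and WASHC1 stand at 1.78 and -1.18.

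Transcripts of the proteins that these complexes recycle are read against the 38% higher and 39.3% lower of all tested genes. Of 13 listed cargo genes 12 were tested, of which 3 were higher and 5 lower, 4 not passing, with a median of -0.020. The integrin ITGA5 (0.30 ± 0.03), APP (0.12 ± 0.03) and the receptor LRP1 (0.12 ± 0.03) rose slightly, and LRP1 lost its call without abemaciclib replicate 1 (0.088, edgeR adjusted p = 0.161). ATP7B, a copper pump, fell from 2.48 ± 0.526 to 0.524 ± 0.0944 CPM (-2.20 ± 0.31), NOTCH1 fell by 1.48 ± 0.07 and the glucose transporter SLC2A1 by 1.35 ± 0.17 on the log2 scale. SLC2A1 lost its call without abemaciclib replicate 2 (edgeR adjusted p = 0.118). The integrin ITGB5 (-0.33 ± 0.04), named because the count is small, fell too. The copper pump ATP7A, which depends on COMMD1 for its traffic, was chosen after its values were seen. It was at 6.40 ± 0.371 and 7.35 ± 1.59 CPM (0.22 ± 0.14, edgeR adjusted p = 0.138). Its log2 fold change was 0.42 without abemaciclib replicate 1 and -0.029 without abemaciclib replicate 2. With library size counted without mitochondrial genes ATP7A was called higher (0.39), where the median of all tested genes was 0.16. Scaling by library size raised the number of cargo genes called higher to 5, and leaving out mitochondrial genes from the library size to 7.

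Copper handling genes were higher in 8 of 10 cases and lower in 2, with a median of 0.39, beside 38% higher and 39.3% lower over all tested genes. The chaperone ATOX1, which carries copper to the pumps, rose from 47.1 ± 3.20 to 109.4 ± 4.30 CPM (1.21 ± 0.05, edgeR adjusted p = 1.68e-19). The transporter SLC31A2 (0.82 ± 0.07) and the cytochrome oxidase assembly factor SCO1 (0.72 ± 0.06) rose as well. COX17, which brings copper to that assembly, fell (-0.44 ± 0.07), as did CCS, the copper chaperone of superoxide dismutase (-0.17 ± 0.04), whose call was lost with library size counted without mitochondrial genes (-0.0063).

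Of 21 NF-kB and cullin partners of the family 10 were higher, 2 did not pass and 9 were lower (median 0.073), where all tested genes had 38% higher and 39.3% lower. CUL2, a cullin that assembles with elongins, rose from 23.1 ± 0.450 to 43.0 ± 1.248 CPM (0.90 ± 0.06, edgeR adjusted p = 1.18e-14). SOCS1 was also higher (0.45 ± 0.10). REL (0.62 ± 0.24) passed the threshold, but not with DESeq2 (adjusted p = 0.129), without untreated replicate 1 or without abemaciclib replicate 2. The inhibitor NFKBIA (-1.35 ± 0.03), NFKB2 (-1.26 ± 0.04) and CUL7 (-1.21 ± 0.04) fell furthest. RELA, the NF-kB subunit whose ubiquitination COMMD1 promotes, chosen after its values were seen, fell from 155.4 ± 6.004 to 72.8 ± 0.692 CPM (-1.09 ± 0.04, edgeR adjusted p = 4.01e-22).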

How the data were processed

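Poly-A RNA was measured in 2 untreated and 2 abemaciclib libraries, grouped and numbered from the sample titles. The kit was a stranded one for mRNA, per the labels' protocols. The deposited files give the authors' expected counts per gene, estimated counts that need not be whole and are not scaled for depth or length. STAR 2.7.2b, RSEM 1.3.1 and GRCh38 are named in the submitters' processing notes, and the annotation release is not given in the sources used here.

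Counts were rounded, filtered with filterByExpr and tested with edgeR 4.0.16 in R 4.3.3 (TMM scaling, robust quasi-likelihood F test, two-sided, group alone, 2 residual degrees of freedom, Benjamini-Hochberg over 17207 genes). SEs were obtained as the absolute log2 fold change over the root of F. The fit pools information on spread over genes, so p-values and SEs do not rest on the 2 residual degrees of freedom of a gene alone. As an example, the SE of COMMD1 was 0.09 here and 0.15 with DESeq2. Totals of 23684260 to 33418075 counts make 3 counts worth 0.0898 to 0.127 CPM. Alternatives were DESeq2 1.42.0, other scalings, no filter, unrounded counts, a replicate block and each library left out. Coordinates and lengths came from GENCODE 29 on GRCh38, matched by identifier (96.4%).

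The members and lists were chosen with earlier results of these data known. Named were all members, all CCC, retriever and WASH genes, SNX17, all rows with COMMD in their name and, in the other lists, the 3 highest and 3 lowest past the threshold with at least 1 CPM. No genes were named for likeness of pattern, since 4 libraries in 2 groups hold 1 contrast. Some genes of the lists are counted but not reported by name here.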

Additional observations from a re-analysis of the deposited data

How the results depend on the processing

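The 9 COMMD members above 0 stayed there under all 11 alternatives, and COMMD6 is described above. With library size counted without mitochondrial genes, the median of all tested genes was 0.16 instead of -0.012, so values there stand relative to that shift: COMMD6 was at 0.13. That setting gave 5 WASH genes higher, 0 retromer and sorting nexin genes lower, 7 cargo genes higher and 1 copper gene lower, and it turned VPS26C to 0.15, SNX27 to 0.12 and TFRC, a cargo gene at -0.064 chosen after its values were seen, to 0.10. Scaling by library size gave 5 cargo genes higher and turned COMMD6 to 0.020, VPS26C to 0.034 and SNX27 to 0.0098. With 1 library left out at a time, log2 fold changes that changed sign ranged from -0.093 to 0.021 for COMMD6, -0.027 to 0.012 for VPS26C, -0.079 to 0.11 for WASHC3 and -0.029 to 0.42 for ATP7A. Over the alternatives that kept every library, 7 to 10 members would be called higher and 0 lower. Beside this, the genes called higher among all tested ran from 5588 to 7791, each of these extremes out of 17207. Nothing is read from the member counts, since the family was put forward with this contrast in view. The ratio of the highest to the lowest member per kb of exon was 16.3 untreated and 9.77 after the drug. It became 21.8 and 15.6 per kb of coding sequence and 11.8 and 14.1 by principal transcript, both added after seeing the data. The latter covers 9 members, since COMMD7 had neither of the principal tags searched. The cause of these changes was not tested.

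The replicate number did not pair the samples: the correlation of deviations between same-numbered libraries was -2.2e-04. With the replicate block 7 members would be called higher instead of 8, and no partner count changed. Protein identity between members was not run. COMMD10 rests on 230 to 328 counts, the fewest in most libraries, which limits its precision.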
